A study of Mus musculus and Rattus norvegicus with 33 samples.

Results

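The PGC-1 coactivators and the mitochondrial regulators that work with them were followed in the tibialis anterior, a muscle of the lower leg that flexes the ankle, of mice and rats whose leg nerve was trained with an implanted stimulator. The group holds 8 genes, chosen by symbol: Ppargc1a, Ppargc1b, Esrra, Esrrg, Nrf1, Tfam, Ppard and Ppara. Each had a row of its own in both tables, out of 21322 mouse genes and 12411 rat gene symbols, and all 8 were tested in both species. All animals were labelled wild type, with no strain or age. Left legs, coded TAL with the animal number, were trained or sham-operated, and right legs, coded TAR, were the contralateral controls of the same animals. In mice, 2 legs had 2 days of training, 3 legs had 10 days and 3 legs had over 17 days, and there were 9 contralateral legs, of which TAR348 came without a left leg analysed here. Rats were trained for 30 days, daily (n = 2) or every 3 days (n = 3), or were sham-operated (n = 3), with 8 contralateral legs. Trained legs were taken 1 hour after exercise, and the labels give no time for the other legs. The sham label mentions an operation but no device. No mouse leg was sham-operated, so in mice training, implantation and the side of the body cannot be told apart.

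PGC-1 alpha, the product of Ppargc1a, is a transcriptional coactivator that muscle makes in response to exercise, through calcium, AMPK and cAMP signals. It does not bind DNA itself but docks on the estrogen-related receptors, the PPARs and NRF1, which switch on nuclear genes of mitochondria and of fat oxidation. NRF1 and the related factor GABP switch on Tfam, whose protein enters mitochondria and packages and transcribes mitochondrial DNA.

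The promoters of Ppargc1a and Tfam are shown because these genes stand at the head and at the end of that chain and because Ppargc1a was called in the rats and Tfam in no comparison. The sequences are mouse RefSeq windows of 250 bases before to 50 after the start site (build GRCm38.p6), chr5:51567676-51567975 on the minus strand for Ppargc1a and chr10:71237995-71238294 on the minus strand for Tfam, printed 5′ to 3′. Capitals mark matches on either strand to 5 motifs, the cAMP response element TGACGTCA, the estrogen-related receptor half-site AAGGTCA, the NRF1 site GCGCATGC, the GABP site CCGGAAG and the Sp1 box GGGCGG.
Ppargc1a: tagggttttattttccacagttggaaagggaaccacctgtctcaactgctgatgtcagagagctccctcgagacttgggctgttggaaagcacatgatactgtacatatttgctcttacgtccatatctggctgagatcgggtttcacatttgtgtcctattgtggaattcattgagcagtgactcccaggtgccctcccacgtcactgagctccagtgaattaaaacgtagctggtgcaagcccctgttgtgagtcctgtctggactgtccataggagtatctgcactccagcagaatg
Tfam: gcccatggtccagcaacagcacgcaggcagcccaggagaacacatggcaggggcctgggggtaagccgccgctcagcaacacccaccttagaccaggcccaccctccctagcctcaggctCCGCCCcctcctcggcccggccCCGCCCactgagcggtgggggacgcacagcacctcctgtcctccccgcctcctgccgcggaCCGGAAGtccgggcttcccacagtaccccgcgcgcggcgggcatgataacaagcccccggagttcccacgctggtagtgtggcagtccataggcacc
The Ppargc1a window held none of the 5 motifs as spelled. No window at any other start site of Ppargc1a was searched, so the gene may hold these motifs elsewhere. The Tfam window held the GABP site from -47 to -41 bases from the start site, a match found in 8.86 percent of all 32851 mouse promoter windows. It also held the Sp1 box at 2 places on the opposite strand, and 35.7 percent of all windows held that box. An NRF1 site, present in 2.71 percent of windows, lay in those of Esrra, from -34 to -27, and Ppara, where 2 overlapping matches ran from -31 to -22. The cAMP response element was in 1.79 percent and the estrogen-related receptor half-site in 4.72 percent of all windows, and neither was in a window of these genes. A match describes letters in a window, not a site in use. The window of mouse Ppargc1b is not shown.

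Expression is given in CPM, the unit the authors deposited, which puts each gene's reads on a scale common to the libraries of a species. The mouse values include 15 mitochondrially encoded genes and the rat values include 0, so CPM levels of the 2 species are not on the same scale. These genes made up 11.4 percent (leg TAL344) to 25.4 percent (leg TAL349) of a mouse library. A mouse fit without them was among the alternatives, and no member was called in it. An estimated 26.5 to 43.1 M reads stood behind each mouse library. In rats the estimate was 11.6 to 28.0 M, apart from contralateral leg TAR299 at 4.87 M, where Nrf1 and Esrrg rested on about 25 and 26 reads. Changes are differences of log2(CPM + 0.5) with their standard errors from limma, and a gene was called at a Benjamini-Hochberg adjusted p under 0.05 over all genes tested in that species. In bulk muscle, fewer cells of a type and less RNA per cell cannot be told apart. All 8 defining skeletal muscle fibre markers were present in every library, with summed levels of 90096 to 150291 CPM in mice and 132576 to 226017 CPM in rats.

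Ppargc1a rose in every comparison of trained with untrained rat legs, and it was the only member called in any of them. In the daily rats it stood at 74.2 CPM in leg TAL292 and 72.7 CPM in leg TAL294. Training every 3 days gave 46.4, 44.0 and 46.5 CPM in legs TAL295, TAL298 and TAL299. The sham legs held 9.85, 14.0 and 16.04 CPM, and the 8 contralateral legs held 6.80 to 14.7 CPM with a median of 12.1. All 5 trained legs were above all 11 untrained legs, a pattern seen in 4.27 percent of the rat genes tested, and no other member had it.

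Against sham, Ppargc1a was 2.45 ± 0.25 higher on the log2 scale after daily training (5.46-fold, adjusted p = 7.69e-06) and 1.77 ± 0.22 higher after training every 3 days (3.40-fold, adjusted p = 5.33e-05). With the animal as a block the changes were 2.44 (adjusted p = 0.000851, with 1.38 percent of all genes called) and 1.49 (adjusted p = 0.00506, with 1.66 percent called). In these comparisons 1 of the 8 members was called, beside 8.14 percent of all genes for daily training and 4.25 percent for training every 3 days. The average of both schedules against sham gave 2.11 ± 0.20 (adjusted p = 1.96e-06), with 9.83 percent of genes called. Against contralateral legs the changes were 2.64 ± 0.22 for daily training (adjusted p = 6.12e-07, 8.22 percent of genes called) and 1.96 ± 0.19 for training every 3 days (adjusted p = 1.62e-06, 6.66 percent called). By size of the increase against sham, Ppargc1a ranked 56 of 10356 genes after daily training and 119 after training every 3 days. Every comparison named here was called under each alternative tried, with adjusted p of 0.00506 or less. The 2 schedules share the sham legs, and the contralateral legs came from the same rats.

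Within the same rat, the left leg held 6.43 and 7.44 times the Ppargc1a CPM of the right leg in the daily rats TAL292 and TAL294. The ratios were 3.79, 3.00 and 3.90 in the rats TAL295, TAL298 and TAL299 trained every 3 days. The sham rats TAL296, TAL297 and TAL300 gave 1.45, 1.00 and 1.31. The trained and sham ratios did not overlap, and the share of all genes with such a gap was not counted.

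The schedules themselves differed by 0.68 ± 0.25 for Ppargc1a on the log2 scale (1.60-fold, 95 percent interval 0.16 to 1.21). Both daily legs lay above all 3 legs trained every 3 days, an order that was not counted over all genes. The difference did not pass the adjustment over all genes (limma, unadjusted p = 0.0139, adjusted p = 0.645), as few genes did: 0.0869 percent were called, and none of the 8 members. Sham and contralateral legs differed by 0.19 ± 0.18 (adjusted p = 0.999), with 0 genes called in that comparison by limma.

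**Figure D1:**
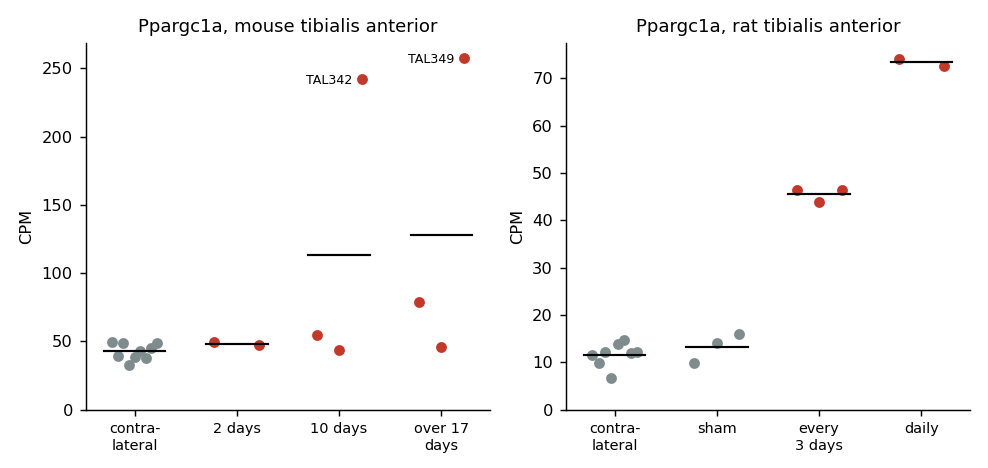
Ppargc1a level in CPM (vertical axis, from 0) in each leg, by group, in mice (left) and rats (right). Red points are trained legs, grey points are untrained legs and bars are group means; in rats all 5 trained legs lie above all 11 untrained legs, and in mice legs TAL342 and TAL349 stand far above the rest.

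In mice the same gene was very uneven between trained legs, and no member was called in any of the 7 mouse comparisons. After 2 days Ppargc1a stood at 49.5 CPM in leg TAL344 and 47.3 CPM in leg TAL345. After 10 days legs TAL340, TAL341 and TAL342 held 54.5, 43.5 and 242 CPM. After over 17 days legs TAL337, TAL343 and TAL349 held 79.2, 46.2 and 258 CPM. The 9 contralateral legs held 32.7 to 49.6 CPM with a median of 43.2. Legs TAL342 and TAL349 thus stood apart, leg TAL337 was above the contralateral range, and the others lay within it or close to it.

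The mean change of Ppargc1a against contralateral legs was 0.19 ± 0.49 at 2 days (adjusted p = 0.843), 0.97 ± 0.42 at 10 days (adjusted p = 0.21) and 1.204 ± 0.42 at over 17 days (adjusted p = 0.0838). The background of called genes was 9.72, 5.53 and 8.78 percent in these comparisons. At an unadjusted p under 0.05, limma gave 0, 2 and 3 of the 8 members. The share of all genes at that looser threshold was not counted, so these counts have no background. Without leg TAL342 the 10-day change was 0.20 (adjusted p = 0.862), and without leg TAL349 the change at over 17 days was 0.51 (adjusted p = 0.481). Without leg TAL343, the lowest of its group, it was 1.74 and called (adjusted p = 0.0249), and it was also called when only the compared groups were fitted (1.204, adjusted p = 0.0271). The average of the trained groups was 0.79 ± 0.31 (adjusted p = 0.0871, 17.6 percent of genes called). That average was called without leg TAL341 (0.94, adjusted p = 0.0404) and without leg TAL343 (0.97, adjusted p = 0.0296). The groups trained for 10 days and for over 17 days differed by 0.24 ± 0.52 (adjusted p = 0.962), with 0 genes called. Against 2 days no member was called at 10 days, where 0.022 percent of genes were, or at over 17 days, where 0.586 percent were.

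Within the same mouse, the left leg of TAL342 held 7.42 times and that of TAL349 held 5.25 times the Ppargc1a CPM of the right leg. The ratio was 1.60 in mouse TAL337, 1.39 in TAL340 and 0.89 in TAL341. Mouse TAL343 gave 1.203, and the 2-day mice TAL344 and TAL345 gave 1.15 and 1.24. In 7 of 8 mice the trained leg was the higher, and how many of all genes reach this was not counted. Over all genes, 1.69 percent lay higher in all 8 trained than in all 9 contralateral mouse legs, and no member did. Legs TAL342 and TAL349 held the lowest summed levels of their groups for fibroblast markers (711 and 660 CPM) and for macrophage markers (109 and 62.9 CPM). Both legs also held the lowest muscle fibre sums of their groups (117116 and 90096 CPM). Their right legs held 32.7 and 49.1 CPM of Ppargc1a, the lowest and the second highest of the contralateral legs.

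The genes whose levels followed Ppargc1a most closely over the 17 mouse libraries were Fam102a (Pearson r = 0.96), Ern1 (r = 0.94), Ankrd33b (r = 0.92), Rab30 (r = 0.91) and Wipf3 (r = 0.90). Ern1 encodes IRE1 alpha, a sensor of unfolded protein in the endoplasmic reticulum. Fam102a stood at 40.0 CPM in leg TAL342 and 33.5 CPM in leg TAL349, against a median of 5.39 CPM, and Ern1 at 53.8 and 51.7 CPM against 16.6 CPM. Without these 2 legs r was 0.39 to 0.72. Over the 16 rat libraries the closest genes were Tln1 (r = 0.95), Tspo (r = 0.95), Socs6 (r = 0.95), Flnc (r = 0.94) and Atp6v0d1 (r = 0.94). Tln1 encodes talin, which ties integrins to actin, and Flnc encodes filamin C, a structural protein of the Z-disc. Flnc ran from 841 to 6012 CPM and was highest in leg TAL292. In the 11 untrained rat legs alone r was 0.41 to 0.71. The libraries of a group share their treatment, so these values describe the samples and carry no test.

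Ppargc1b encodes PGC-1 beta, the relative that shares the docking partners of PGC-1 alpha and is known to respond less to acute exercise. It was not called in any comparison. Mouse legs trained for over 17 days held 14.6, 8.93 and 9.50 CPM in TAL337, TAL343 and TAL349. Those trained for 10 days held 6.52, 9.54 and 12.1 CPM in TAL340, TAL341 and TAL342, and the 2-day legs TAL344 and TAL345 held 12.9 and 7.05 CPM. Contralateral legs held 6.45 to 9.20 CPM with a median of 8.09, so 5 of 8 trained legs lay above their range. How many of all genes show such a pattern was not counted. The change at over 17 days was 0.42 ± 0.19 (adjusted p = 0.177), and every left leg of that group held more than its own right leg, by 1.30 to 1.67 times. For the average of the trained groups the change was 0.29 ± 0.14 (adjusted p = 0.152), and without leg TAL345 it was 0.43 and called (adjusted p = 0.0247).

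In rats Ppargc1b lay at 10.4 and 18.3 CPM after daily training and at 23.9, 17.5 and 19.8 CPM after training every 3 days. The sham legs held 11.2, 14.8 and 20.9 CPM and the contralateral legs 7.89 to 18.0 CPM. The groups overlapped, and the changes against sham were -0.13 ± 0.34 for daily training (adjusted p = 0.860) and 0.40 ± 0.31 for training every 3 days (adjusted p = 0.589). In the same legs Ppargc1a had risen in both. Whether the changes of these 2 genes differed from each other was not tested. The closest genes to Ppargc1b in mice were Pmpcb, Immt and Uqcrc2, with Dap3 and Cd83 next (r = 0.83 to 0.84). The first 3 encode proteins of mitochondrial import, inner membrane folding and respiratory complex III. In the 9 contralateral mouse legs alone r ran from 0.36 for Uqcrc2 to 0.86 for Cd83. Cd83 was low, with a median of 0.60 CPM over the 17 mouse libraries. In rats the closest genes were Nadsyn1, Mn1, Sh3pxd2a, Dis3l2 and Tcea2 (r = 0.82 to 0.91).

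Esrrg encodes the receptor ERR gamma, which drives oxidative genes in muscle and is known to be most abundant in slow, oxidative fibres. After over 17 days of training legs TAL337, TAL343 and TAL349 held 22.4, 19.2 and 22.5 CPM, and their own right legs held 34.0, 35.3 and 32.6 CPM. All 3 trained legs were below their right legs, at 0.54 to 0.69 of the level. With the animal as a block this fall was 0.66 on the log2 scale (-0.66, adjusted p = 0.0121), in a comparison that called 7.45 percent of genes. Without the block the change against all contralateral legs was -0.35 ± 0.14 (adjusted p = 0.148) and was not called. The right legs of these mice were the 3 highest of the 9 contralateral legs, of which the other 6 held 20.3 to 29.4 CPM. The trained legs lay within or just under that range, at 19.2 to 22.5 CPM.

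After 10 days of training, Esrrg stood in legs TAL340, TAL341 and TAL342 at 20.9, 20.6 and 23.3 CPM and in their right legs at 20.3, 29.4 and 25.1 CPM, a change of -0.33 ± 0.14 (adjusted p = 0.22). In 2 of these 3 mice the trained leg was the lower, and the group of over 17 days differed from this group by -0.02 ± 0.18 without the block (adjusted p = 0.993) and by -0.47 with it (adjusted p = 0.999). After 2 days the left legs TAL344 and TAL345 were above their right legs, at 31.3 against 23.8 CPM and at 28.5 against 22.4 CPM. The 2-day legs lay above every leg of the longer trainings, an order that was not counted over all genes. The groups trained for over 17 days and for 2 days differed by -0.48 ± 0.20 (adjusted p = 0.245), which was not called. In rats Esrrg ranged widely within groups. It stood at 27.1 and 22.2 CPM after daily training, 16.5, 24.1 and 29.4 CPM after training every 3 days, 10.8, 16.2 and 21.2 CPM in sham legs and 5.34 to 26.2 CPM in contralateral legs. The lowest value was in the shallow leg TAR299, and the changes against sham, 0.64 ± 0.47 and 0.53 ± 0.42, were within this spread (adjusted p = 0.444 and 0.607). Summed slow fibre markers also ranged widely in rats, from 222 to 3239 CPM in sham legs and 1669 to 4825 CPM in contralateral legs. They were 2528 to 2556 CPM in daily legs and 799 to 5791 CPM in legs trained every 3 days. Their part in the Esrrg values was not tested. The closest genes to Esrrg were Thumpd1, Slf1, Nedd1, Gm5165 and Odr4 in mice (r = 0.78 to 0.86) and Pacs1, Epas1, Nipsnap2, Map4k5 and Birc6 in rats (r = 0.94 to 0.95).

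**Figure D2:**
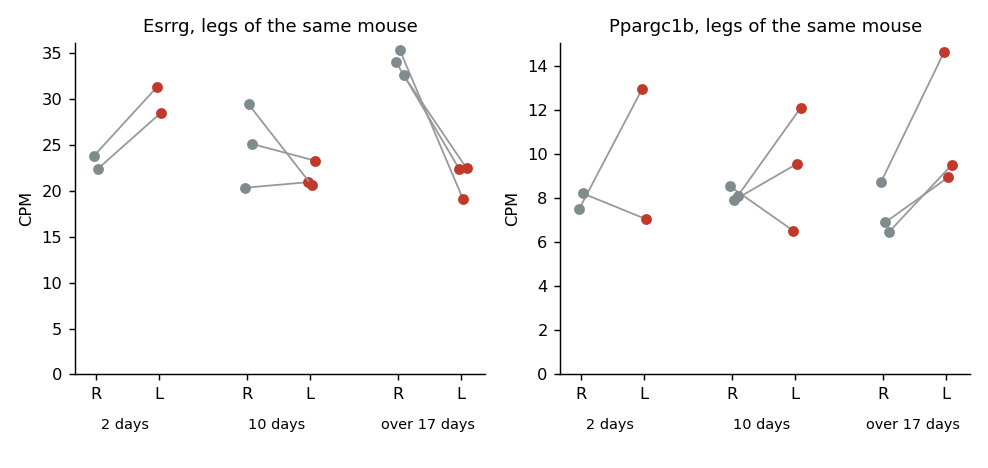
Levels in CPM (vertical axis, from 0) of Esrrg (left) and Ppargc1b (right) in the right (R, grey) and left (L, red, trained) leg of each of 8 mice, by length of training, with a line joining the legs of a mouse. Esrrg goes down in all 3 mice trained for over 17 days and up in both 2-day mice, and Ppargc1b goes up in all 3 mice of the longest training.

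Esrra encodes ERR alpha, the receptor through which PGC-1 alpha drives much of oxidative phosphorylation, and is itself a target of that pair. In the rats it was highest after daily training, at 247 and 227 CPM, against 189, 201 and 212 CPM after training every 3 days. Sham legs held 151, 176 and 190 CPM, and contralateral legs 138 to 224 CPM with a median of 201. The daily legs lay above every sham leg and every contralateral leg, and the share of all genes with that order was not counted. The change against sham was 0.47 ± 0.18 (95 percent interval 0.09 to 0.84, unadjusted p = 0.0185, adjusted p = 0.123 by limma) and 0.30 ± 0.15 against contralateral legs (adjusted p = 0.253), so it was not called. Within the daily rats the left leg held 1.32 times the right leg in 1 animal and 1.01 times in the other. In mice Esrra stood at 82.4 to 128 CPM in trained legs and 86.4 to 129 CPM in contralateral legs, with changes between -0.02 and -0.07 at the 3 lengths of training (adjusted p = 0.797 to 0.943).

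Nrf1 encodes the nuclear respiratory factor that binds promoters of respiratory chain genes and of Tfam. It was the steadiest member beside Tfam in mice, at 8.46 to 12.1 CPM over all 17 legs. Its changes against contralateral legs ran from -0.12 ± 0.10 at 10 days to 0.05 ± 0.12 at 2 days (adjusted p = 0.569 to 0.844). In rats it lay at 4.16 to 7.46 CPM in all 16 legs. The change against sham was 0.01 ± 0.23 after daily training (95 percent interval -0.49 to 0.50, adjusted p = 0.993) and 0.02 ± 0.21 after training every 3 days (adjusted p = 0.979).

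Tfam, the mitochondrial DNA packaging factor, varied least. In mice it lay between 30.9 CPM in leg TAL343 and 37.3 CPM in leg TAL337, a range of 1.21-fold over 17 legs, over which Ppargc1a spanned 7.88-fold. Legs TAL342 and TAL349, the highest for Ppargc1a, held 35.6 and 34.4 CPM of Tfam. The mean change over the trained groups was -0.001 ± 0.058 (95 percent interval -0.12 to 0.12, adjusted p = 0.995). In rats Tfam stood at 77.9 and 82.2 CPM after daily training, 72.4, 69.1 and 76.7 CPM after training every 3 days, 59.8, 69.1 and 81.8 CPM in sham legs and 71.7 to 106 CPM in contralateral legs. The groups overlapped, and the daily change against sham was 0.20 ± 0.17 (95 percent interval -0.15 to 0.55, adjusted p = 0.523).

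Ppard and Ppara encode the fatty acid sensing receptors PPAR delta, the main form in muscle, and PPAR alpha. Neither was called in any comparison. Mouse Ppard ranged from 19.0 to 34.9 CPM in trained and 19.9 to 37.5 CPM in contralateral legs, with the lowest mean change, -0.31 ± 0.17, at over 17 days (adjusted p = 0.269). In rats it stood at 19.6 to 27.2 CPM in trained, 18.2 to 23.3 CPM in sham and 15.0 to 31.0 CPM in contralateral legs. Ppara lay at 5.68 to 12.8 CPM in mouse legs and 4.32 to 10.1 CPM in rat legs. Its changes against contralateral legs in mice ran from -0.06 to 0.19 and against sham in rats from 0.15 to 0.19 (adjusted p = 0.699 or more).

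Levels per kilobase of transcript model, which allow genes to be compared, could be given for rats. In contralateral legs Esrra was highest at 90.1 ± 14.0 CPM per kilobase (SD, n = 8), followed by Tfam at 55.0 ± 8.19. Ppard stood at 7.10 ± 1.76 and Esrrg at 5.15 ± 2.10. Ppargc1a was at 4.77 ± 1.01, Ppargc1b at 4.43 ± 1.2, Ppara at 3.77 ± 0.92 and Nrf1 at 3.26 ± 0.58. Esrra and Tfam stood apart from the rest. From Esrrg downward each neighbour in this order differed by less than either SD, and Ppard and Esrrg differed by less than the SD of Esrrg.

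**Figure D3:**
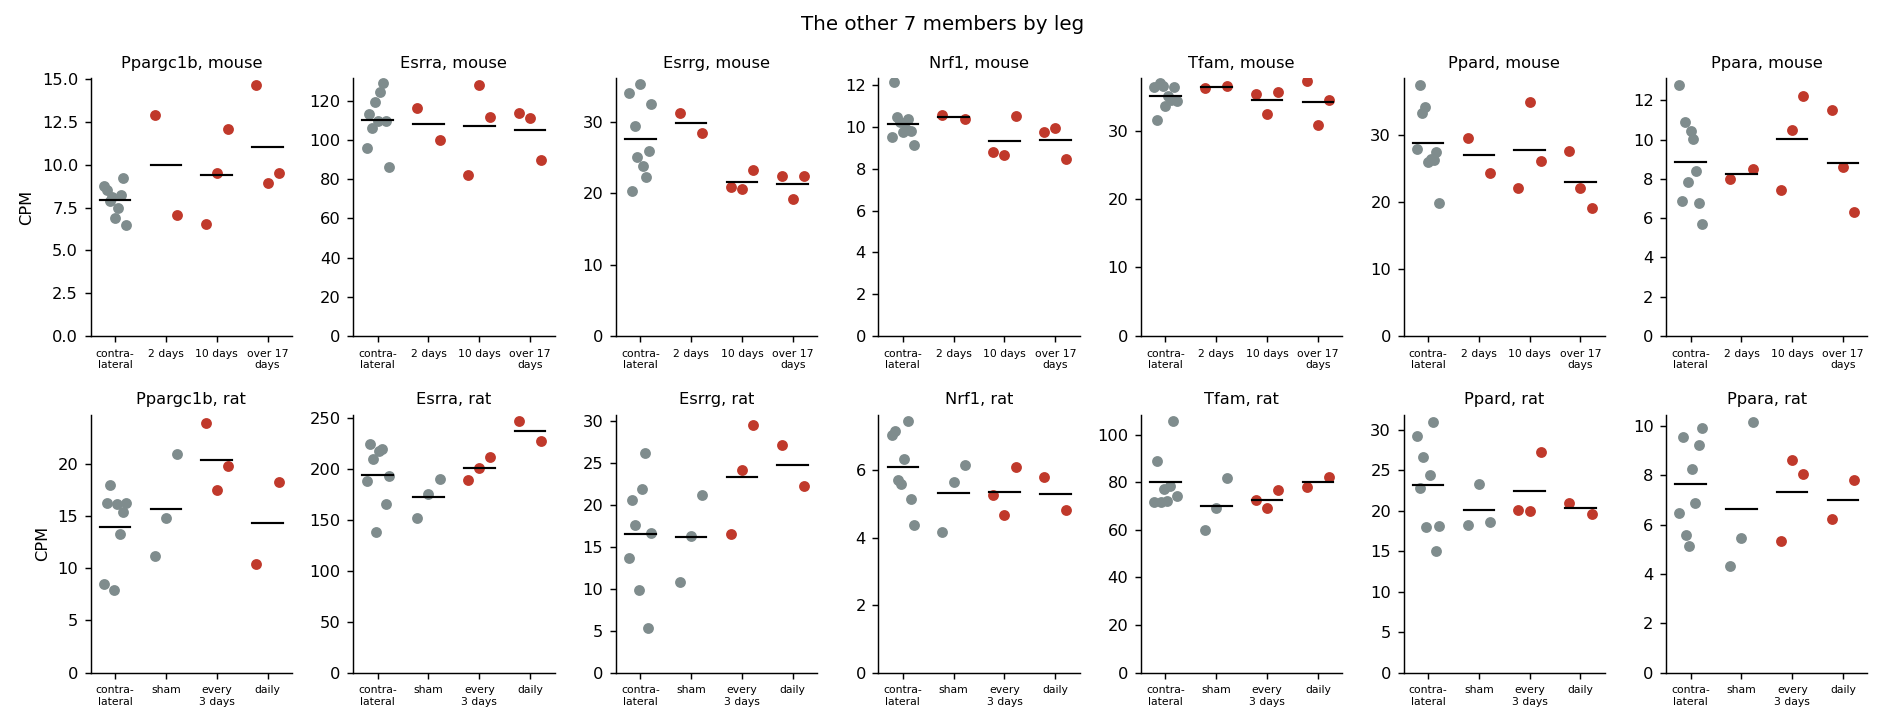
Levels in CPM (vertical axes, each from 0) of the 7 members other than Ppargc1a in each leg, by group, in mice (top) and rats (bottom), with trained legs in red, untrained legs in grey and group means as bars. The groups overlap for nearly every gene. The daily rat legs lie above the untrained legs for Esrra, whose change was not called.

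**Figure D4:**
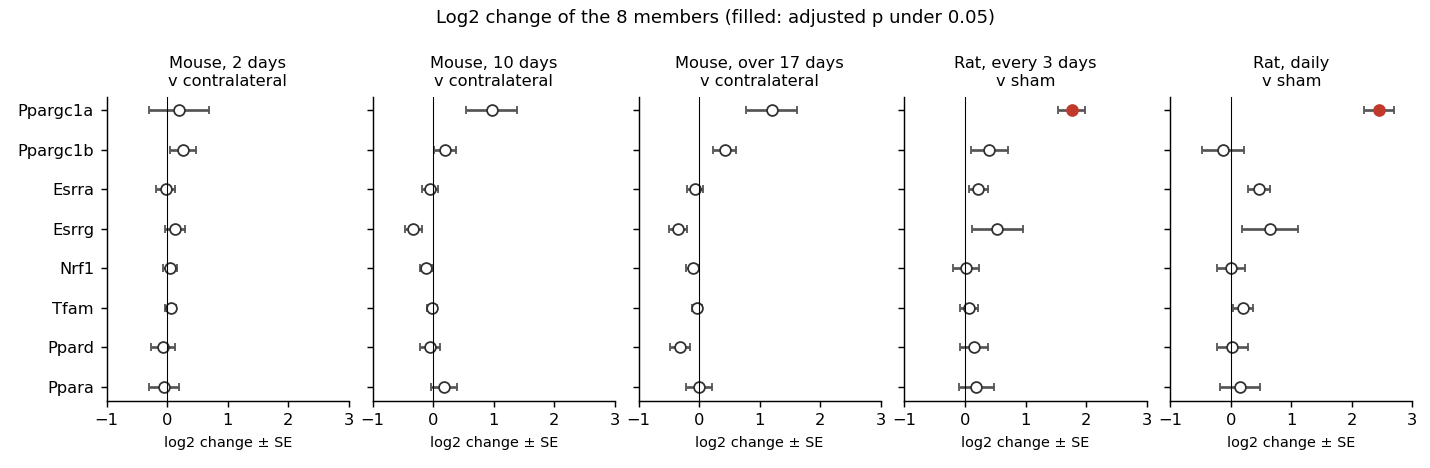
Log2 change ± SE (horizontal axis) of the 8 members in the mouse groups against contralateral legs and in the rat groups against sham legs, filled where the adjusted p was under 0.05. Only Ppargc1a in the 2 rat comparisons is filled, at 1.77 and 2.45.

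Among 23 relatives, partners and corepressors of PGC-1, 3 of 22 tested in rats rose after daily training and none fell, where 8.14 percent of all genes were called. Nrip1, the corepressor RIP140, changed by 1.22 ± 0.34 (adjusted p = 0.0327), Perm1, a muscle factor that acts with ERR and PGC-1, by 1.01 ± 0.28 (adjusted p = 0.0354) and Sirt1, a deacetylase of PGC-1 alpha, by 0.82 ± 0.19 (adjusted p = 0.0136). After training every 3 days Nrip1 (1.11 ± 0.30, adjusted p = 0.0411) and Sirt1 (0.92 ± 0.17, adjusted p = 0.00307) rose, where 4.25 percent of all genes were called. Against contralateral legs Sirt1 was called after both schedules (0.61 ± 0.17, adjusted p = 0.0304, and 0.71 ± 0.14, adjusted p = 0.00434). Nrip1 was not (0.75 and 0.65, adjusted p = 0.121 and 0.144), nor was Perm1 (0.73 and 0.56, adjusted p = 0.0763 and 0.134). Against sham the list medians, 0.04 and 0.12, stood beside 0.10 and 0.07 for all genes. None of the 5 calls against sham held with the animal as a block. Sirt1 after training every 3 days was called in the other 14 of 15 alternatives. Nrip1 was lost without any 1 of legs TAL292, TAL294, TAL296 and TAL297 after daily training, and without any 1 of the 6 compared legs after training every 3 days. Perm1 was lost without TAL292, TAL294, TAL296 or TAL297, and Sirt1 after daily training without TAL292, TAL294 or TAL296.

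In mice the partner that fell at more than 1 length of training was Rxra, the receptor RXR alpha with which the PPARs pair. It changed by -0.56 ± 0.12 at 2 days (adjusted p = 0.00533) and -0.54 ± 0.10 at over 17 days (adjusted p = 0.00189), and the first call was lost without leg TAL344 and the second with the animal as a block. At 2 days Prmt1, a methyltransferase that acts on PGC-1 alpha, rose by 0.74 ± 0.17 (adjusted p = 0.0107) and Lpin1, a lipid phosphatase and coactivator, changed by -0.65 ± 0.19 (adjusted p = 0.0340). Rxrg changed by -0.57 ± 0.14 at over 17 days (adjusted p = 0.0136). Prmt1 and Lpin1 were lost without leg TAL344, Rxrg was lost without leg TAL337, and all 3 with the block. Of 23 partners, 3 were called at 2 days, 0 at 10 days and 2 at over 17 days, beside 9.72, 5.53 and 8.78 percent of all genes. The 3 list medians were -0.03, -0.10 and -0.02 beside 0.11, 0.03 and 0.05 for all genes.

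Of 21 genes of the signals that reach Ppargc1a, Sik1, a kinase that is induced by cAMP and acts on the CRTC and class II HDAC regulators, rose in all 5 groups. In rats its level was 15.4 ± 4.93 CPM (SD, n = 2) after daily training and 17.3 ± 3.27 CPM (n = 3) after training every 3 days, against 1.2 ± 0.47 CPM in sham legs (n = 3). The changes were 3.23 ± 0.54 (adjusted p = 0.00106) and 3.41 ± 0.48 (adjusted p = 0.000207). In mice Sik1 stood at 43.7 ± 7.07, 43.7 ± 4.74 and 41.6 ± 4.09 CPM at 2 days, 10 days and over 17 days, against 13.2 ± 7.59 CPM in 9 contralateral legs. The changes were 1.83, 1.83 and 1.77 (adjusted p = 0.00411, 0.00108 and 0.00136), of which the 2-day call was lost without leg TAL344. In the 10-day group the SD was 4.74 CPM for Sik1 and 112 CPM for Ppargc1a, whose mean was 114 CPM.

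The regulatory subunits of AMPK moved in opposite directions in the daily rats. Prkag3, the gamma 3 subunit of fast glycolytic muscle, fell from 170 ± 42.4 CPM in sham legs to 21.1 ± 4.09 CPM (-2.96 ± 0.34, adjusted p = 2.92e-05). Prkag2, the gamma 2 subunit, rose from 4.0 ± 1.21 to 32.3 ± 24.0 CPM (2.68 ± 0.37, adjusted p = 0.000193). The 2 daily legs differed widely for Prkag2, with 49.3 CPM in TAL292 and 15.3 CPM in TAL294, both above the 2.68 to 5.07 CPM of the sham legs. The fitted fold of 6.41 was 3.61 without TAL292 (adjusted p = 0.0114) and 11.4 without TAL294 (adjusted p = 1.40e-05). After training every 3 days Prkag3 was at 74.2 ± 17.1 CPM (-1.18 ± 0.30, adjusted p = 0.0309), a call lost with the block and without any 1 of legs TAL296, TAL297, TAL298 and TAL299. In mice at over 17 days Prkag3 changed by -0.84 ± 0.21 (adjusted p = 0.0168) and Prkag2 by 0.79 ± 0.23 (adjusted p = 0.0367). The first call was lost without leg TAL337, and the second with the block, with median-of-ratios scaling, and without any 1 of 7 legs, TAL337, TAL349, TAR341, TAR342, TAR343, TAR344 and TAR348. Camk2a, a calcium-dependent kinase subunit, fell at 2 days (-0.60 ± 0.12, adjusted p = 0.00351, lost without leg TAL344) and 10 days (-0.54 ± 0.10, adjusted p = 0.00257). It also fell at over 17 days (-0.74 ± 0.10, adjusted p = 0.000149, called in all 21 alternatives) and in the daily rats (-0.70 ± 0.20, adjusted p = 0.0344). The rat call was lost with the block and without any 1 of TAL292, TAL294, TAL296 and TAL297. These last 2 comparisons of Camk2a lie outside the rule for named genes and were chosen after their values were seen. In the same 2 comparisons Prkaa1, an AMPK alpha subunit also outside that rule, rose (0.56 ± 0.16, adjusted p = 0.0357, and 1.09 ± 0.28, adjusted p = 0.0210). Both Prkaa1 calls were lost with the block. Prkab2, an AMPK beta subunit, changed by -0.73 ± 0.15 at 2 days (adjusted p = 0.00644), lost without leg TAL344 and with the block. In all, 2 signalling genes rose and 4 fell at 2 days, 1 and 1 at 10 days and 3 and 2 at over 17 days, of 21, beside 9.72, 5.53 and 8.78 percent of all genes called. In rats 3 rose and 2 fell after daily training and 1 and 1 after training every 3 days, of 20, beside 8.14 and 4.25 percent of all genes.

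None of 15 genes for the transcription and copying of mitochondrial DNA rose in any of the 5 comparisons with untrained legs, in which 4.25 to 9.72 percent of all genes were called in either direction. Rrm2b (-0.53 ± 0.14, adjusted p = 0.0235) and Mgme1 (-0.52 ± 0.15, adjusted p = 0.0311), which supply nucleotides and trim replicating DNA, fell at 2 days, both lost without leg TAL344 and with the block. Top1mt, the mitochondrial topoisomerase, fell at over 17 days (-0.63 ± 0.13, adjusted p = 0.00501, lost with the block). In the daily rats Polg, the mitochondrial DNA polymerase, changed by -0.68 ± 0.19 (adjusted p = 0.0339), a call lost without any 1 of legs TAL292, TAL296, TAL297 and TAL300.

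Energy metabolism genes known to respond to PGC-1 were the list with the most calls in the daily rats. After daily training 8 of 21 rose against sham and none fell, where 8.14 percent of all genes were called. The list median was 0.61 beside 0.10 for all genes, with all 21 changes above 0. Vegfa, the vessel growth factor that PGC-1 alpha induces through ERR alpha, went from 341.4 ± 107 to 1138 ± 98.9 CPM (1.78 ± 0.25, adjusted p = 0.000178). Ckmt2, the mitochondrial creatine kinase, rose by 1.42 ± 0.32 (adjusted p = 0.0106) and Mb, myoglobin, by 1.08 ± 0.26 (adjusted p = 0.0145). With the animal as a block 0 of 21 was called, where 1.38 percent of all genes were, and the list median was 0.51. Ckmt2 was also lost without TAL294 or TAL296, and Mb without TAL292 or TAL296. Without sham leg TAL296 the call was lost for 7 of the 8 genes, all but Vegfa. Against contralateral legs 7 of 21 rose after daily training and none fell, where 8.22 percent of all genes were called. The list median there was 0.44 beside 0.06 for all genes. Sham legs were themselves low for this list. Their median against contralateral legs was -0.12, with 3 of 21 genes above 0, beside -0.04 for all genes. Summed slow fibre markers, 6 of 6 present, were 2528 and 2556 CPM in the daily legs and 222, 1220 and 3239 CPM in sham legs TAL296, TAL297 and TAL300. The contralateral legs held 1669 to 4825 CPM with a median of 2987, so the daily legs lay within their range and below their median. The part of the slow fibre markers in these calls was not tested. After training every 3 days Vegfa alone was called, where 4.25 percent of all genes were, at 1289 ± 157 CPM (1.96 ± 0.22, adjusted p = 1.65e-05), and the median was 0.23 beside 0.07.

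In mice Vegfa rose at 10 days (0.92 ± 0.15, adjusted p = 0.00113) and over 17 days (0.85 ± 0.15, adjusted p = 0.00207), as did Ndufb5 of respiratory complex I (0.38 ± 0.09, adjusted p = 0.0165, and 0.42 ± 0.09, adjusted p = 0.00583). Got2, the mitochondrial aspartate aminotransferase, rose at 10 days (0.48 ± 0.11, adjusted p = 0.0111) and Cox7a1, a muscle subunit of cytochrome oxidase, at over 17 days (0.44 ± 0.12, adjusted p = 0.0253). The 10-day calls of Got2 and Ndufb5 were lost without TAL341 or TAL342 and with the block, and Cox7a1 was lost without TAL343 or TAL349 and with median-of-ratios scaling. That made 3 of 21 higher and none lower in each group, beside 5.53 and 8.78 percent of all genes called, with medians of 0.17 and 0.16 beside 0.03 and 0.05. At 2 days none rose and Sod2, the mitochondrial superoxide dismutase, changed by -0.34 ± 0.10 (adjusted p = 0.0400), called in 10 of 20 alternatives.

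Of the PPAR and ERR targets of fat metabolism, Plin2, which coats lipid droplets, was the only called gene of 22 against sham in rats, beside 8.14 and 4.25 percent of all genes. It rose by 1.25 ± 0.23 after daily training (adjusted p = 0.00206, lost without TAL292 and with the block) and by 1.11 ± 0.20 after training every 3 days (adjusted p = 0.00227, lost with the block). The list medians against sham, 0.50 and 0.30, stood beside 0.10 and 0.07 for all genes. Against contralateral legs the medians were 0.15 and -0.005, beside 0.06 and 0.03 for all genes. The sham legs themselves were low for this list. Their median against contralateral legs was -0.30, with 1 of 22 genes above 0, beside -0.04 for all genes. At 2 days in mice none of 23 rose and Ucp3 (-0.87 ± 0.24, adjusted p = 0.0306), Acot2 (-0.77 ± 0.24, adjusted p = 0.0463) and Cd36 (-0.64 ± 0.18, adjusted p = 0.0353), which serve fatty acid handling, fell, beside 9.72 percent of all genes called. Ucp3 was lost without TAL344 or TAL345 and with the block, and Acot2 and Cd36 were called in 9 and 13 of 20 alternatives. None was called at 10 days or over 17 days.

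Markers of some other cells differed between some of these groups, and their part in the results was not tested. Summed fibroblast markers, 7 of 7 present, were 847 to 988 CPM in the daily rats. In the rats trained every 3 days they were 478, 576 and 1455 CPM. All lay above the 208 to 462 CPM of the sham legs. The contralateral rat legs held 223 to 610 CPM, a range that took in 478 and 576 CPM. Summed muscle fibre markers were 132576 to 134105 CPM in the daily rats and 148464 to 182718 CPM in those trained every 3 days. All lay below the 183844 to 226017 CPM of the sham legs. The contralateral rat legs held 162500 to 201252 CPM, which overlapped the legs trained every 3 days. In mice the fibroblast sums were 660 to 2420 CPM in trained and 240 to 803 CPM in contralateral legs. Macrophage sums in these mouse legs, 8 of 8 markers present, were 62.9 to 673 CPM and 37.8 to 177 CPM. In rats the macrophage sums overlapped, at 61.4 to 69.0 CPM in daily legs, 33.5 to 112 CPM in legs trained every 3 days and 24.9 to 73.3 CPM in sham legs.

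**Figure D5:**
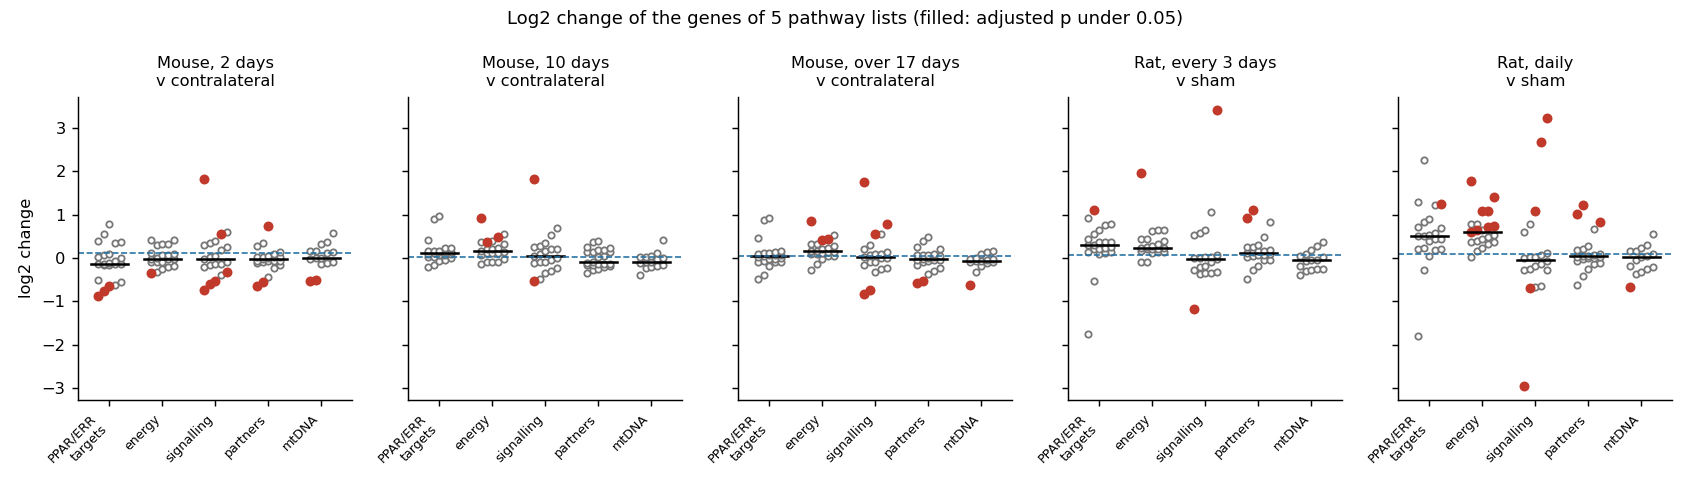
Log2 change (vertical axis) of each gene of 5 lists, PPAR and ERR targets, PGC-1 responsive energy genes, signalling to Ppargc1a, PGC-1 partners, and mitochondrial DNA genes, filled where the adjusted p was under 0.05. Black bars are list medians and the dashed line is the median of all genes. Against sham, the energy genes of the daily rats have 8 of 21 filled and a median of 0.61.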

How the data were processed

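The deposited values are CPM in which every column sums to 1000000 after an offset of 0.0001 is taken off, as was done here. STAR 2.7.8a, DESeq2 and Partek appear in the submitters' processing notes, as do the builds rn7, GRCm39 and mm10, with no roles given. The authors' steps from counts to CPM are not given in the sources used here. Whole reads were not recovered, so no count test was run, and depth was estimated from the smallest CPM steps. Rat models of a symbol were summed. A gene needed 1 CPM in 2 libraries to be tested, which left 13647 mouse and 10356 rat genes. limma 3.58.1 (R 4.3.3, mean-variance trend, 2-sided) was run on log2(CPM + 0.5). All groups of a species shared the spread, in 14 comparisons, 7 per species, with Benjamini-Hochberg adjustment. Fold changes on this scale understate those of low genes. The fit was tested on simulated data.

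The labels give both legs of an animal its number, which pairs them. Their deviations correlated at 0.12 to 0.30 in mice, apart from -0.03 in animal 345, and at 0.04 to 0.26 in rats. Blocking on the animal was tried as an alternative, beside other pseudocounts, filters and scalings, only the compared groups, and leaving out each leg. Named genes were all 8 members, of each list the 3 called genes with the largest changes, and for Ppargc1a, Ppargc1b and Esrrg the 5 most correlated genes. Members and lists were chosen with earlier results of these data known. Counts of reads from near-identical copies or antisense genes could not be checked.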

Additional observations from a re-analysis of the deposited data

Results flagged for a closer look

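Nrf1 in mouse contralateral leg TAR340, at 12.1 CPM, was set apart from the other 8 contralateral legs by a gap larger than Dixon's critical value. It was the only such leg in 16 gene and group combinations checked, where chance gives about 1 in 20.

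Ppargc1a changed more from the right to the left leg in trained than in sham rats. The difference of own-leg changes was 2.44 for daily training (adjusted p = 0.000851) and 1.49 for training every 3 days (adjusted p = 0.00506), from limma with the animal as a block.

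Esrrg was lower in the left than in the right leg in all 3 mice trained for over 17 days and higher in both 2-day mice, a difference of own-leg changes of -1.03 (adjusted p = 0.237). Esrra went the other way, with a difference of 0.34 (adjusted p = 0.716). Neither passed the test.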

How the results depend on the processing

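The number of members called was 1 in each of the 5 comparisons of trained with untrained rat legs under every alternative run, and 0 in the other 2 rat comparisons. In mice it was 0 except in 2 comparisons. At over 17 days it was 1 with the animal as a replicate block (Esrrg), 1 with only the compared groups (Ppargc1a), and 0 to 1 when legs were left out in turn. For the average of the trained groups it was 0 to 1 when legs were left out. The block changed no other call of a member. No called change of a member or named gene reversed. Median-of-ratios scaling moved the median of all genes at 2 days from 0.11 to -0.001 and changed no call of a member. It moved the share of higher genes among all called from 75.3 to 52.9 percent at 2 days, from 71.8 to 58.6 at over 17 days, from 70.2 to 53.8 for the trained mouse groups, from 68.0 to 55.1 for daily training against sham and from 74.5 to 61.1 for the trained rat groups. Among all genes the block took the number called from 1326 to 560 at 2 days, from 754 to 400 at 10 days, from 843 to 143 for daily training and from 440 to 172 for training every 3 days against sham. With only the compared groups it was 1213 at 10 days. Trained and sham groups of 2 or 3 legs limit all results in both species. Without a leg of a pair, the remaining leg is assumed to vary like the other groups. In rats the shallow leg TAR299 also limits the low values of Nrf1 and Esrrg.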
